A study of Mus musculus with 56 samples.

Results

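The chemokine ligands of the mouse were followed through 7 regions of the male reproductive tract at 2 ages. Members were all genes whose symbol reads Ccl, Cxcl, Cx3cl or Xcl followed by a number and at most 1 letter, apart from Ccl5 and Ccl8, which were kept aside and are given only as context. The rule found 36 genes among the 53379 rows of the count table: 21 of the Ccl type, 13 of the Cxcl type, Cx3cl1 and Xcl1. The data were RNA-seq read counts of the testis, the efferent ductules that drain it, 4 stretches of the epididymis (initial segment, caput, corpus, cauda) and the vas deferens, from male C57BL/6 mice without treatment or engineered allele. Each region had 4 libraries from mice of 3 months and 4 from mice of 21 months, 56 in all. Per the study's methods, 4 mice were used at each age and the left and right organ of a mouse were put together. Each library is therefore a whole piece of tissue, with its epithelium, muscle, vessels, immune cells and any sperm, and in such bulk samples fewer cells of a type and less RNA per cell cannot be told apart.

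Chemokines are small secreted proteins that bind G protein-coupled receptors on leukocytes and other cells and direct where those cells move. Homeostatic chemokines are made steadily by epithelium and stroma and set where resident cells settle, whereas inflammatory ones are switched on by interferons and NF-kB. In the epididymis and its neighbours, resident macrophages and dendritic cells lie against an epithelium that must tolerate sperm and still resist infection from the urethra.

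Library totals ranged from 11125279 to 20561967 counts with a median of 16384049. Levels are given as CPM (counts scaled to a common library size) after TMM scaling over all 56 libraries, as the mean ± SD of 4 libraries, and a level per kilobase divides this by the length of the gene's exons. The regions carried their own markers: Prm2 of sperm cells was at 2325.0 to 3237.0 CPM in the testis, Lcn8 at 5995.0 to 8514.0 CPM in the initial segment, Rnase13 at 483.8 to 1552.0 CPM in the caput and Akr1b7 at 10320.0 to 22580.0 CPM in the vas deferens. Of the efferent ductules libraries, some also held Lcn8, at 0 to 401.2 CPM over the 8. Replicate 3 of the cauda at 3 months stood apart, with a summed level of 12 macrophage markers of 3974.0 CPM against 546.3 to 577.3 CPM in the other 3, 10 of the 12 genes above all of them, and 8 fibroblast markers at 9317.0 against 2207.0 to 2469.0 CPM. Replicate 2 of the caput at 3 months had 49.739% of its counts in 1 row, Gm42418, which overlaps ribosomal RNA, against 1.27 to 36.027% in the other libraries. Replicate 3 of the efferent ductules at 3 months had a sum of 8 germ cell markers of 174.1 CPM against 36.03 to 39.37 CPM in the other 3. Results for members that rest on these libraries are given with and without them.

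A mean of at least 1 CPM in each of the 14 groups of region and age was reached by 5 members. These were Ccl25, Ccl27a, Cx3cl1, Cxcl12 and Cxcl16. A further 14 did so in at least 1 group: Ccl3, Ccl6, Ccl7, Ccl9, Ccl11, Ccl12, Ccl17, Ccl22, Ccl24, Ccl28, Cxcl9, Cxcl10, Cxcl13 and Cxcl14. Ccl3 did so only in the cauda at 3 months, with a mean of 1.096 CPM that was 0.1887 CPM without the library that stood apart. The other 17 stayed under 1 CPM throughout, among them the neutrophil attractants Cxcl1, Cxcl2, Cxcl3, Cxcl5 and Cxcl15, the Ccr7 ligands Ccl19, Ccl21a and Ccl21b, and Ccl4. For Ccl19, Ccl20, Ccl21a, Ccl21b and Cxcl3 all 56 libraries together held at most 10 counts. Low counts of some members are uncertain, since sequence windows of 50 bases are shared with other annotated genes for 100% of Ccl21b, 98.1% of Ccl27b, 71.6% of Ccl21a, 52% of Ccl19 and 45% of Ccl27a.

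**Figure D1:**
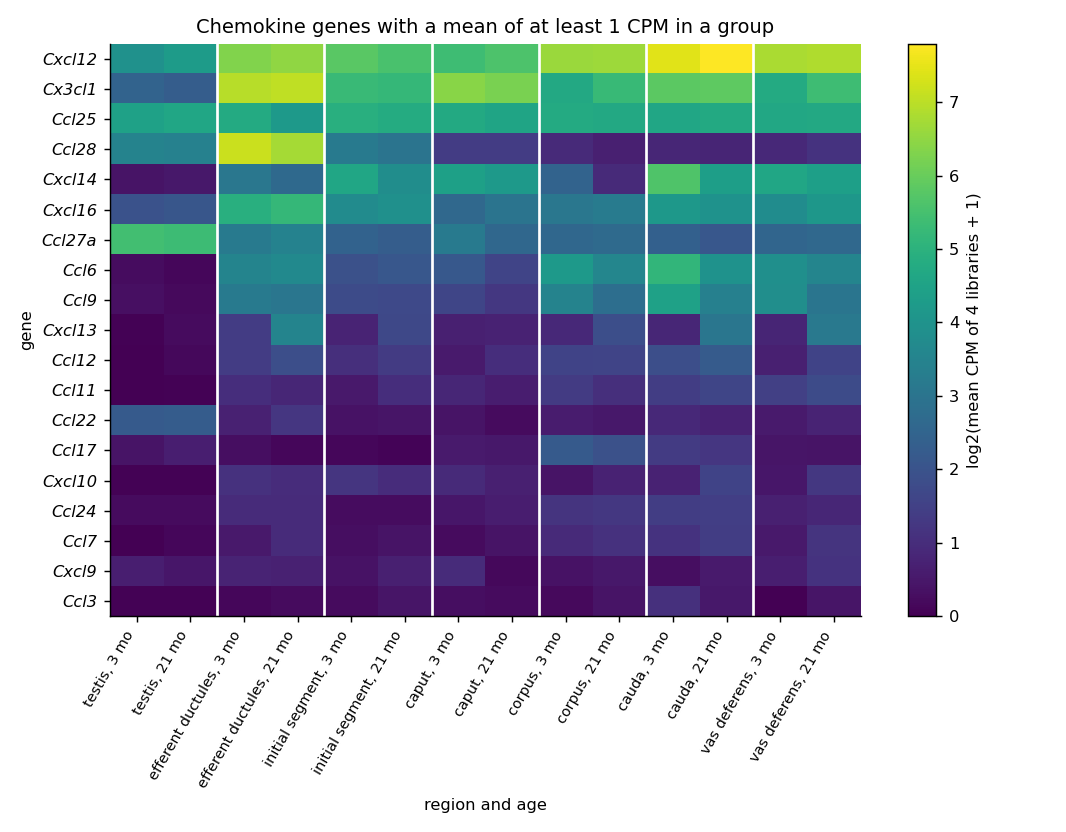
Mean level of the 19 members that reached 1 CPM in at least 1 group, as a colour scale of log2(mean CPM of 4 libraries + 1), with genes down the side and the 14 groups of region and age along the bottom. Cx3cl1, Cxcl12, Ccl25, Ccl27a and Cxcl16 are coloured in every group, while Ccl28 is bright in the efferent ductules and Ccl22 and Ccl17 are pale outside 1 or a few regions.

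Per kilobase of exon and averaged over the 14 groups, the 6 highest members were Cx3cl1 at 13.36, Cxcl12 at 10.53, Cxcl14 at 8.072, Ccl6 at 5.416, Ccl27a at 4.509 and Cxcl16 at 4.4 CPM per kilobase. Cx3cl1, or fractalkine, is held at the cell surface and binds Cx3cr1 on macrophages. At 3 months its mean ranked in the order efferent ductules (123.9 CPM), caput (84.32), cauda (55.65), initial segment (37.63), vas deferens (26.33), corpus (25.22) and testis (4.535 CPM). Among neighbours in this order the vas deferens (24.39 to 30.27 CPM) overlapped with the corpus (19.33 to 30.88 CPM) and with the initial segment (28.82 to 51.51 CPM). The initial segment also overlapped with the cauda (33.09 to 66.25 CPM), but not without the cauda library that stood apart, when the cauda mean was 63.17 CPM. Cxcl12, the ligand of Cxcr4 and of the scavenger Ackr3, had another order. Its mean at 3 months was highest in the cauda (171.4 ± 12.5 CPM, SD, n = 4) and lowest in the testis (14.36 ± 1.07 CPM), with the vas deferens at 110.1, the corpus at 97.19, the efferent ductules at 79.04, the initial segment at 55.1 and the caput at 39.98 CPM between them. The ranges of the vas deferens (94.04 to 129.1 CPM) and the corpus (89.21 to 103.0 CPM) overlapped. Ccl25, known from thymus and gut and a ligand of Ccr9, was the most even of the widely expressed members, with group means from 17.26 to 28.92 CPM. Cxcl16, a membrane-bound ligand of Cxcr6, went from 2.887 CPM in the testis to 29.48 CPM in the efferent ductules at 3 months. An exon of Zmynd15 on the other strand covers 18.3% of the Cxcl16 exon bases, and the strand setting of the counting is not stated.

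The summed level of all 36 members was 102.0 CPM in the testis at 3 months and 444.6 CPM in the efferent ductules, with the other regions between. It was 105.9 and 433.6 CPM at 21 months. In no region did the sum differ between the ages past an adjusted p of 0.05 (exact two-sided permutation test of 4 against 4 libraries, adjusted over 7 regions). The lowest p was that of the initial segment, where 180.9 ± 4.96 CPM at 3 months and 160.4 ± 5.65 CPM at 21 months did not overlap (exact p = 0.02857, the smallest this design allows, adjusted p = 0.2). A few members made up most of the sum. Ccl27a held 41.5% of the chemokine counts of the testis at 3 months, Ccl28 held 31.81% in the efferent ductules, Cx3cl1 42.77% in the caput, and Cxcl12 between 30.45 and 46.96% in the initial segment, corpus, cauda and vas deferens.

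To ask which members mark a region, each region was set against the mean of the other 6 within an age. A call needed an adjusted p under 0.05 in edgeR's quasi-likelihood test and a level at least 4 times that mean. Per the study's methods the organs of a mouse were dissected together, so the 28 libraries of an age came from 4 animals. The labels do not tie libraries to animals, and these p-values treat the libraries as independent. At 3 months 29 members were tested and 13 calls were made, 1 in the corpus and 4 in each of the cauda, efferent ductules and testis. Over all genes the same rule called 2.33% for the cauda, 2.69% for the corpus, 5.71% for the efferent ductules and 28.8% for the testis. The initial segment, caput and vas deferens, where 2.48, 3.05 and 2.9% of all genes were called, had no call among the members. At 21 months there were 9 calls, 7 of them also made at 3 months. They were 4 for the testis (27.6% of all genes), 2 for the corpus (2.88%), and 1 each for the efferent ductules (5.22%), the cauda (1.97%) and the initial segment (4.21%). At 21 months no member was called in the caput or the vas deferens, against 1.77 and 3.98% of all genes. Fewer calls were made under stricter settings, 4 at each age after filterByExpr, and 5 at 3 months and 3 at 21 months when the level had to be 4 times that of each single other region. The calls of Ccl1 and Ccl26 in the testis and of Cxcl17 in the efferent ductules are not independent of the filter on low counts, as described below.

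Ccl28, a chemokine of mucosal epithelia that binds Ccr10 and Ccr3, was the member with the highest ratio among those above 1 CPM. It lies on chromosome 13 at positions 119623819 to 119654359 of GRCm38. In the efferent ductules at 3 months the 4 libraries read 146.2, 137.6, 145.8 and 136.1 CPM, and at 21 months 111.3, 86.19, 96.3 and 128.4 CPM. Means elsewhere were 10.17 CPM in the testis and 8.29 CPM in the initial segment at 3 months and 0.59 to 1.63 CPM in the other 4 regions over both ages. Against the other 6 regions together the ratio was 37.88 at 3 months (edgeR quasi-likelihood test, Benjamini-Hochberg adjusted p = 3.021e-24) and 31.55 at 21 months (adjusted p = 3.575e-19). The efferent ductules were also at least 4 times each single other region at both ages. All 4 libraries of 21 months were below all 4 of 3 months, but this age difference did not pass the adjusted threshold (log2 fold change -0.34 ± 0.14 SE, edgeR adjusted p = 0.1609).

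In the testis, Ccl27a, a skin chemokine that binds Ccr10, read 39.51, 45.44, 48.22 and 36.17 CPM at 3 months and 40.86, 38.04, 38.91 and 40.56 CPM at 21 months. In the other regions its group means lay between 3.36 and 10.05 CPM. Against the other 6 regions together the ratio was 7.277 at 3 months (edgeR adjusted p = 5.487e-22) and 6.42 at 21 months (adjusted p = 1.452e-20). Part of its coding sequence is identical to that of its neighbour Ccl27b, so that reads from there could have been given to either. The first 50 coding bases of the Ccl27a transcript Ccl27a-201, which Ccl27b also carries, are shown because they are one source of this ambiguity (GENCODE M21, GRCm38, chr4:41770141-41770190, minus strand, no capitals):
Ccl27a and Ccl27b: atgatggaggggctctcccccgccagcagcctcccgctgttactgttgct

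Ccl22, a ligand of Ccr4 known from dendritic cells, was the other member above 1 CPM called in the testis. Its libraries read 4.18, 3.098, 3.109 and 4.175 CPM at 3 months and 3.332, 4.567, 3.924 and 3.307 CPM at 21 months, above the 0.18 to 1.34 CPM of the group means elsewhere. The ratio was 7.007 at 3 months (edgeR adjusted p = 6.625e-10) and 5.518 at 21 months (adjusted p = 2.503e-09). The other 2 testis calls, Ccl1 and Ccl26, were named after their values were seen because they stayed under 1 CPM, at means of 0.4802 and 0.1403 CPM at 3 months and 0.546 and 0.218 CPM at 21 months. The DESeq2 Wald test did not call Ccl26 in the testis at either age (adjusted p = 0.278 and 0.2129). In the other 6 regions Ccl1 had means of at most 0.08042 CPM and Ccl26 of at most 0.04055 CPM. Over all libraries they had 92 and 31 counts, and within single regions both reached the count needed for a test only in the testis. That Ccl1 and Ccl26 were tested at all thus rested largely on the region called. Their calls are therefore not independent of the filter on low counts. Ccl17, the second ligand of Ccr4, was instead called in the corpus. It read 5.057, 3.311, 3.425 and 2.628 CPM there at 3 months and 2.986, 3.087, 2.01 and 3.338 CPM at 21 months, a ratio of 7.106 (edgeR adjusted p = 1.408e-13) and 6.383 (adjusted p = 7.688e-11). The next region, the cauda, had means of 1.551 and 1.334 CPM.

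**Figure D2:**
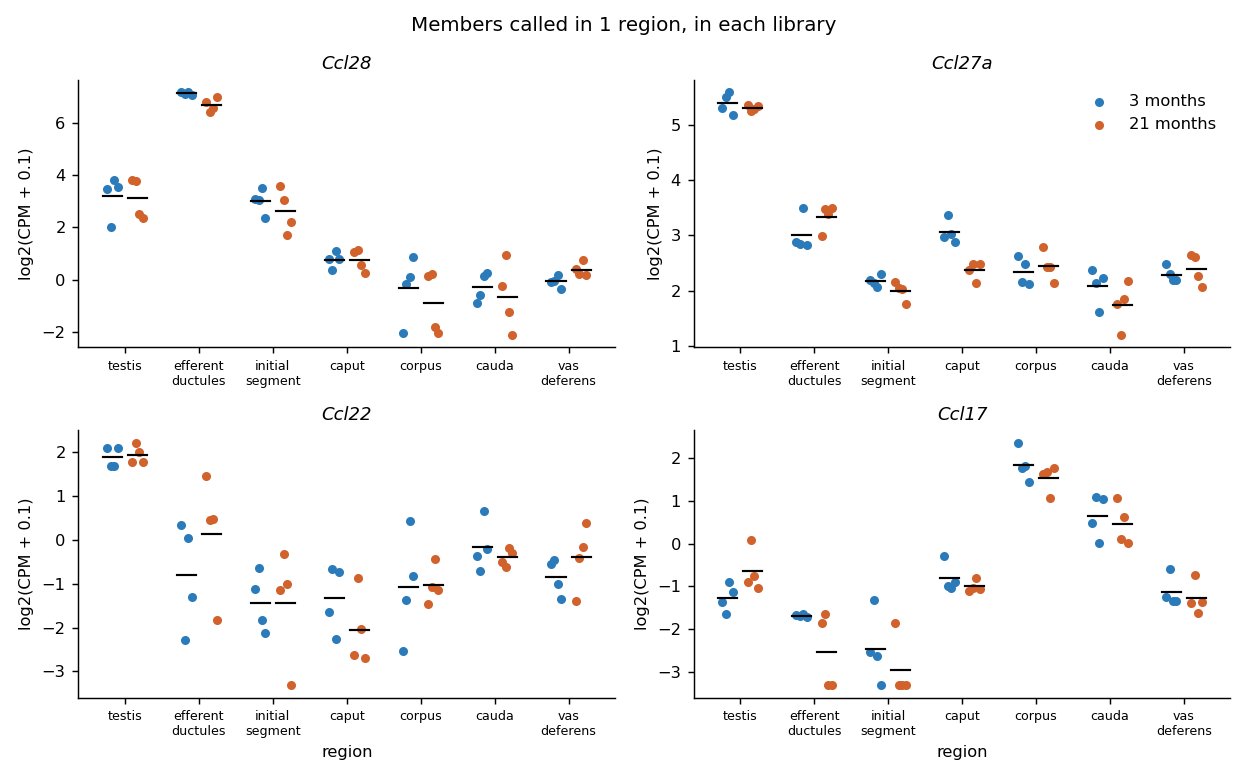
Level of Ccl28, Ccl27a, Ccl22 and Ccl17 in each of the 56 libraries as log2(CPM + 0.1), with the 7 regions along the bottom and the 2 ages as separate symbols. The 8 efferent ductules points of Ccl28, from 86.19 to 146.2 CPM, and the 8 testis points of Ccl27a, from 36.17 to 48.22 CPM, lie above all points of the other regions.

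In the cauda at 3 months the calls of Ccl6, Ccl3 and Ccl4 were lost without replicate 3 of that group. Ccl6, a myeloid chemokine of rodents that binds Ccr1, read 19.27, 16.01, 74.88 and 25.12 CPM, and Ccl3, another ligand of Ccr1, read 0.1847, 0.3176, 3.818 and 0.06377 CPM. The high value of each was that of replicate 3, the library with the high macrophage and fibroblast markers. With this library the ratio to the other 6 regions was 4.206 for Ccl6 (edgeR adjusted p = 2.455e-13) and 9.838 for Ccl3 (adjusted p = 5.985e-06). Without it the ratios were 2.308 and 1.545, both under 4, and that of Ccl4 went from 5.568 to 1.766. Ccl6 was also under 4, at 3.776 to 3.941, under 5 other settings of scaling, filter or tool, and at 3.922 without the caput library with the large Gm42418 share. Other members shared in this library's profile. Ccl9, also a Ccr1 ligand, was there at 45.98 CPM, 3.58 times the mean of the other 3 libraries, and Cxcl16 at 38.29 CPM, 3.93 times. Cx3cl1 was lower, at 33.09 CPM or 0.524 times the mean of the other 3, whereas Cxcl12 was at 1.13 and Cxcl14 at 1.21 times. The part of macrophages or of fibroblasts in these values was not tested.

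**Figure D3:**
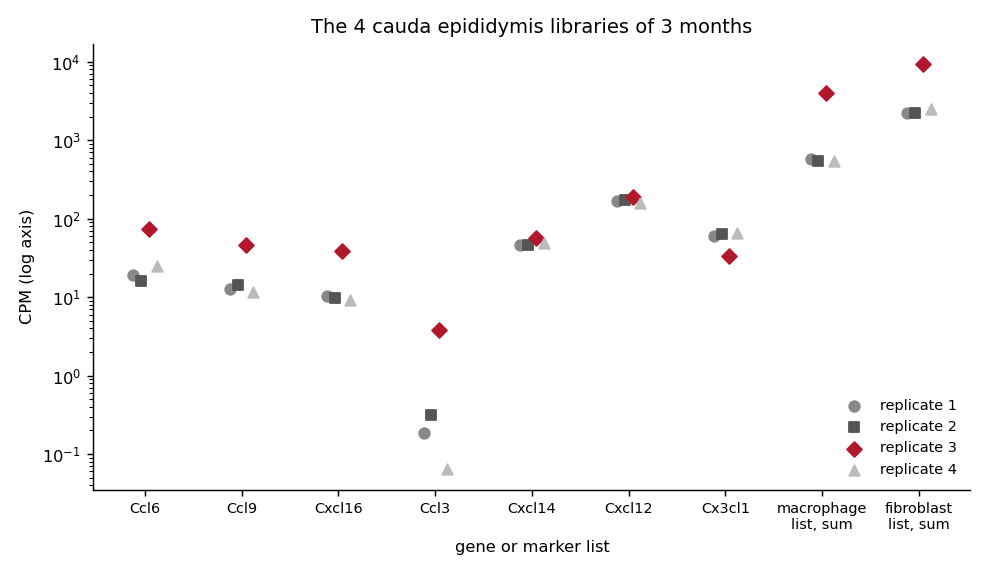
Level in CPM, on a log axis, of chemokine genes and of the summed macrophage and fibroblast marker lists in the 4 cauda epididymis libraries of 3 months. Replicate 3 lies above the other 3 for Ccl6 (74.88 CPM), Ccl9 (45.98 CPM), Cxcl16 (38.29 CPM) and both marker lists, and below them for Cx3cl1 (33.09 CPM).

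The remaining calls at 3 months were the neutrophil attractants Cxcl1 and Cxcl2 and the mucosal chemokine Cxcl17 in the efferent ductules and Cxcl5 in the cauda, and at 21 months Cxcl2 in the initial segment and Cxcl5 in the corpus and cauda. They are named after their values were seen, since none reached 1 CPM. Without replicate 2 of all regions the cauda ratio of Cxcl5 at 3 months went from 4.988 to 1.552. The ratio of Cxcl1 went under the 4-fold limit, from 4.087 to between 3.707 and 3.947, without the cauda library above, without all replicates 2 or without all replicates 4, and was 3.869 with DESeq2 or its size factors and 3.989 without a filter on low counts. Cxcl17 had 13 counts in all 56 libraries, 6 of them in the efferent ductules at 3 months, and with a replicate left out of every group it was too low to test. Without these 6 counts Cxcl17 would not have reached the count needed for a test at 3 months. Its call is therefore not independent of the filter on low counts. DESeq2 gave no adjusted p for Cxcl17 in the efferent ductules and Cxcl5 in the cauda at 3 months. The 21-month ratio of Cxcl2 in the initial segment, 4.053, went to between 3.016 and 3.641 without all replicates 1 or without all replicates 4.

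The second question was which members differed between 3 and 21 months. Age was tested in each region over 8 libraries, and 28 members could be tested in at least 1 region. Of 163 pairs of member and region, 17 passed an adjusted p of 0.05, 11 with the higher level at 21 months and 6 with the lower. They belonged to 10 members.

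By region, the efferent ductules had 1 member higher of 24 tested, where 4% of all genes rose. The initial segment had 2 higher and 1 lower of 24 (3.35% of all genes rose and 3.01% fell). The caput had 1 lower of 22 (5.05% fell, and 3.09% rose). The corpus had 2 higher and 2 lower of 24 (1.5 and 1.47%). The cauda had 1 higher and 1 lower of 25 (0.07 and 0.0583%). The vas deferens had 5 higher and 1 lower of 24 (11.4 and 8.47%). In the testis none of 20 members passed, where 0.353% of all genes rose and 0.21% fell. There 4 members had an unadjusted p under 0.05 and DESeq2 called 1, Cxcl12. The median log2 fold change of the members tested was 0.50 in the vas deferens, beside 0.02 over all genes, 0.35 in the initial segment, beside -0.01, and -0.25 in the caput, beside -0.01, while in the other 4 regions it lay between 0.03 and 0.20.

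The study's limits were a 1.5-fold change and a p of 0.05 from DESeq2, without saying whether p was adjusted. Applied to the unadjusted edgeR p, these limits named more members in every region but the corpus. It gave 7 higher and 1 lower in the vas deferens (12.4 and 5.43% of all genes), 2 higher and 3 lower in the cauda (3.54 and 4.76%), 1 higher and 3 lower in the corpus (3.48 and 3.36%), and 2 higher and 3 lower in the caput (4.75 and 8.48%). In the initial segment it gave 4 higher and 1 lower (6.01 and 5.45%), in the efferent ductules 3 higher and 0 lower (6.68 and 6.16%), and in the testis 2 higher and 0 lower (1.42 and 1.3%).

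**Figure D4:**
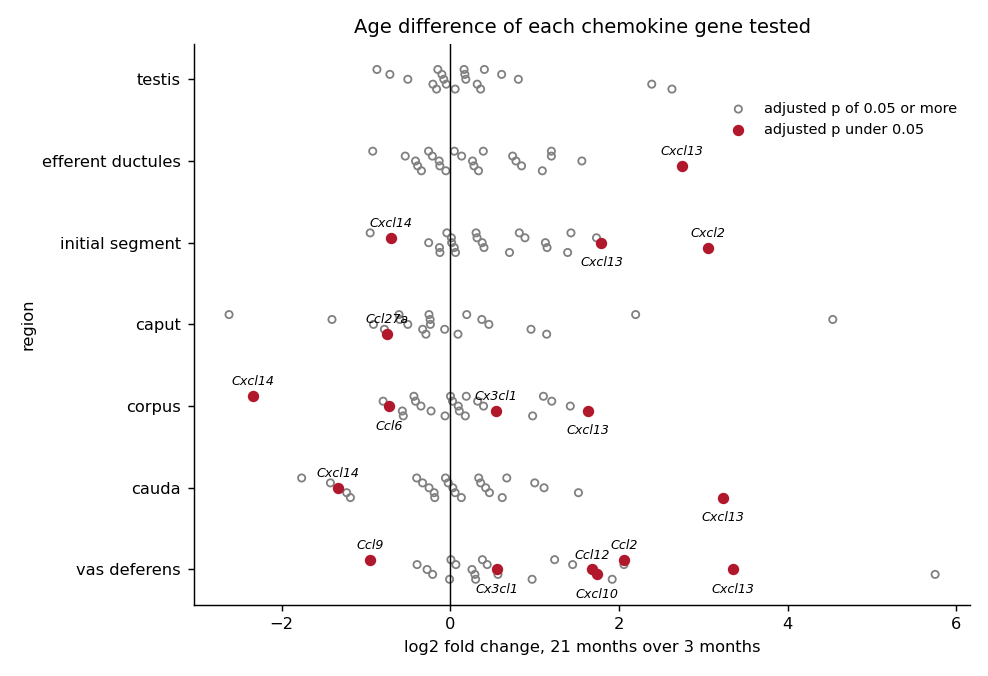
Log2 fold change of 21 over 3 months for every member tested in each of the 7 regions, with the members past an adjusted p of 0.05 marked apart from the rest. The marked points to the right are led by Cxcl13 (up to 3.35, in the vas deferens) and those to the left by Cxcl14 in the corpus (-2.34).

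Cxcl13 was the member that rose in the most regions. Known as the B lymphocyte chemoattractant, it is made by stromal cells of lymphoid follicles and binds Cxcr5 on B cells and follicular helper T cells. Its gene lies on the plus strand of chromosome 5 at 95956951 to 95961068 of GRCm38. Its promoter and that of Cxcl14 are shown because these genes led the changes in the 2 directions. For each, 250 bases before the RefSeq start site of GRCm38.p6 are printed 5′ to 3′ (Cxcl13 chr5:95956689-95956938, plus strand, and Cxcl14 chr13:56296552-56296801, minus strand). Capitals mark matches to TATAAA on the gene's own strand (the TATA box), and on either strand to the core of an interferon-stimulated response element (GAAA, any 2 bases, GAAA), a gamma-activated site (TTCNNNGAA) and an NF-kB site (GGG, any 2 bases, TTTCC).
Cxcl13: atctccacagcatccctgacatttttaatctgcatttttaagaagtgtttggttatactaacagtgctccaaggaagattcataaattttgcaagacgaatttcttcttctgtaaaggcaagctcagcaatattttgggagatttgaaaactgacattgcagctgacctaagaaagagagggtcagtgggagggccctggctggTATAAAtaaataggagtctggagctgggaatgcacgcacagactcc
Cxcl14: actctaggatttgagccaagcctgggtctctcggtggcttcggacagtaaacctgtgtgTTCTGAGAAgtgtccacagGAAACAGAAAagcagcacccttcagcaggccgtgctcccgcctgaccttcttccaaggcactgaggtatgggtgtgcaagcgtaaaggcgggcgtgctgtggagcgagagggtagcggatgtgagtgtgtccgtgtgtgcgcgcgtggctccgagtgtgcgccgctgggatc

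The Cxcl13 window held 1 match, TATAAA at 46 bases before the start, and the Cxcl14 window held the gamma-activated site at 191 and the interferon-stimulated core at 172 bases before it, which do not overlap. Of the 36 members 26 had a RefSeq entry. Among these 26, TATAAA was found in 8, the NF-kB site in 5, the interferon-stimulated core in 3 and the gamma-activated site in 2, against 7.59, 1.41, 2.98 and 7.02% of all 32851 promoters. A match describes letters and not a site in use.

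In the vas deferens the 4 libraries of Cxcl13 read 0.846, 0.7504, 0.5936 and 0.7787 CPM at 3 months and 6.364, 7.717, 3.432 and 14.04 CPM at 21 months. The ages were well apart, and the spread was wider at 21 months. Cxcl13 rose by 3.35 ± 0.42 (SE) on the log2 scale (edgeR quasi-likelihood test, Benjamini-Hochberg adjusted p = 0.0009023). In the cauda it read 0.4926, 0.7623, 0.5834 and 1.275 CPM at 3 months and 3.343, 8.38, 11.55 and 5.811 CPM at 21 months, again without overlap, and rose by 3.23 ± 0.42 (edgeR adjusted p = 0.02873). Leaving out the cauda library that stood apart gave 3.14 (adjusted p = 0.02527). Leaving out any 1 of 5 other cauda libraries (replicates 1, 2 and 4 of 3 months, 3 and 4 of 21 months) gave 2.90 to 3.54 with adjusted p from 0.07045 to 0.1007.

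The efferent ductules held the highest mean of Cxcl13. There the libraries read 1.539, 1.477, 1.149 and 2.28 CPM at 3 months and 14.47, 5.304, 19.21 and 2.458 CPM at 21 months, so that replicate 4 of the older mice lay just above the younger ones. The rise was 2.75 ± 0.57 on the log2 scale (edgeR adjusted p = 0.02115), and without any 1 of the 4 libraries of 3 months it was 2.58 to 2.99 (adjusted p from 0.05923 to 0.07318). With the replicate number as a block it did not pass (edgeR adjusted p = 0.06147). The Gm42418 share was higher in all 4 older libraries (22.215, 4.933, 14.869 and 18.524% in replicates 1 to 4) than in the younger ones (1.27 to 3.295%), and its part was not tested. Lcn8 and Adam28, markers of the neighbouring initial segment, also rose in the efferent ductules, while Lrp2, a marker of the efferent ductules themselves, fell. The part of neighbouring tissue in the result was not tested. In the initial segment Cxcl13 read 0.857, 0.8373, 0.4211 and 0.71 CPM at 3 months and 2.054, 2.327, 2.206 and 2.319 CPM at 21 months, a close and separate set, and rose by 1.79 ± 0.28 (edgeR adjusted p = 0.001775). With all 56 libraries in 1 fit this rise did not pass (edgeR adjusted p = 0.07053).

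In the corpus Cxcl13 read 1.068, 0.5758, 0.9703 and 0.7731 CPM at 3 months and 1.526, 3.163, 3.838 and 2.202 CPM at 21 months. It rose by 1.63 ± 0.35 (edgeR adjusted p = 0.01697), and without replicate 2 of 21 months or replicate 2 or 3 of 3 months by 1.49 to 1.68 (adjusted p from 0.05065 to 0.06305). With all 56 libraries in 1 fit it did not pass (edgeR adjusted p = 0.158). The Gm42418 share of replicates 1 to 4 of 21 months in the corpus was 16.994, 26.808, 36.027 and 26.38%, the same order as for Cxcl13, against 10.383 to 26.32% at 3 months, and its part was not tested. The caput and the testis had no called difference. In the caput the libraries read 0.05543, 0.4015, 0.3834 and 1.573 CPM at 3 months and 0.7949, 0.3207, 1.093 and 0.4343 CPM at 21 months, with the ages interleaved (log2 fold change 0.09 ± 0.67, edgeR adjusted p = 0.9535). In the testis Cxcl13 did not pass 0.4905 CPM in any library.

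B and plasma cell markers were counted beside Cxcl13. In the vas deferens all 12 of these markers rose (11.4% of all genes rose there), and their summed level went from 24.34 to 45.06 CPM at 3 months to 1212.0, 801.9, 981.2 and 1796.0 CPM at 21 months. The receptor Cxcr5 rose there too, from 0.3173, 0.1876, 0.2968 and 0.5354 CPM to 5.359, 2.875, 3.713 and 17.29 CPM (log2 fold change 4.34 ± 0.66, edgeR adjusted p = 0.001937). Replicate 4 of 21 months was the highest library for all of them, but replicate 2, second for Cxcl13, had the lowest marker sum. In the efferent ductules, where 4% of all genes rose, 5 of 12 B and plasma cell markers did, with sums of 626.5, 461.3, 392.7 and 157.8 CPM against 35.06 to 48.32 CPM at 3 months, and replicate 4 was the lowest for both, whereas replicate 3, the highest for Cxcl13, had only the third marker sum. In the initial segment at 21 months the marker sum ran from 29.34 to 220.5 CPM while Cxcl13 stayed between 2.054 and 2.327 CPM. The corpus sums of replicates 1 to 4 at 21 months were 81.81, 236.3, 308.1 and 129.7 CPM, the same order as for Cxcl13. Those of the cauda were 64.12, 178.7, 215.4 and 368.4 CPM. There replicate 1 was the lowest for both, but replicate 3 was the highest for Cxcl13. Of these markers 5 of 12 rose in the corpus (1.5% of all genes), 2 of 12 in the cauda (0.07%) and 3 of 10 tested in the initial segment (3.35%). Where Cxcl13 was not called, 2 of 11 rose in the caput (3.09%) and 1 of 11 in the testis (0.353%). Beside the same shares of all genes, all 18 T cell markers rose in the vas deferens, 1 of 18 in the corpus, 7 in the caput, 9 in the initial segment, 9 in the efferent ductules and none in the cauda or testis. The part of these cells in the level of Cxcl13 was not tested.

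**Figure D5:**
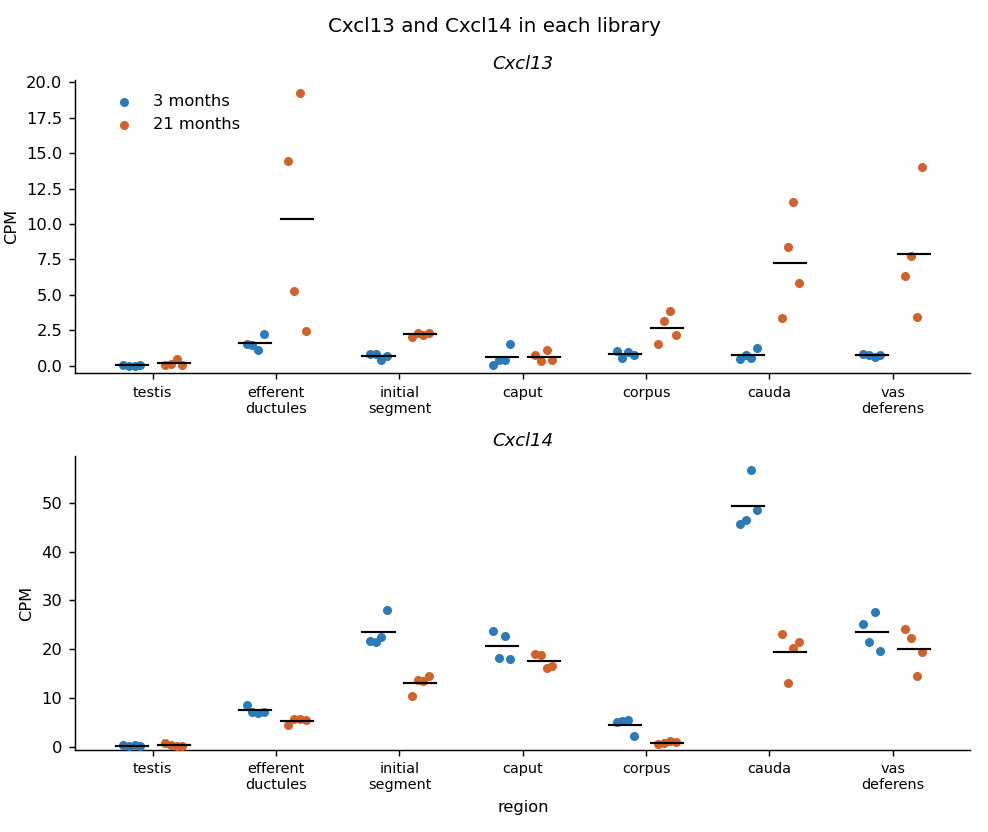
Level in CPM of Cxcl13 (top) and Cxcl14 (bottom) in each of the 56 libraries, with the 7 regions along the bottom and the 2 ages as separate symbols. For Cxcl13 the 21-month points lie above the 3-month points in 5 regions, up to 19.21 CPM in the efferent ductules, and for Cxcl14 they lie below in the initial segment, the corpus and the cauda.

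Cxcl14 went the other way. It is a homeostatic chemokine of epithelia that attracts monocytes and dendritic cell precursors, and its gene lies on the minus strand of chromosome 13 at 56288643 to 56296551. At 3 months it was highest in the cauda and near 0 in the testis (0.3354 CPM). In the cauda the libraries read 45.57, 46.37, 56.64 and 48.46 CPM at 3 months and 23.2, 13.15, 20.36 and 21.42 CPM at 21 months, far apart. Cxcl14 fell there by 1.33 on the log2 scale (SE 0.19, edgeR adjusted p = 0.03876). Without the library that stood apart the fall was -1.22 (adjusted p = 0.03061). Leaving out any of 6 others (replicates 1, 2 and 4 of 3 months, 1, 3 and 4 of 21 months) gave -1.44 to -1.35 with adjusted p from 0.07308 to 0.1411.

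In the corpus Cxcl14 read 5.199, 5.326, 5.479 and 2.319 CPM at 3 months and 0.7299, 0.753, 1.188 and 0.9944 CPM at 21 months. Even the lowest library of 3 months, replicate 4, was above the highest of 21 months. The log2 fold change was -2.34 ± 0.31 (edgeR adjusted p = 0.0004634), the strongest fall among the called members, and it passed without any 1 library. In the initial segment Cxcl14 read 21.64, 21.59, 22.62 and 28.14 CPM at 3 months and 10.45, 13.75, 13.5 and 14.62 CPM at 21 months, a change of -0.71 ± 0.13 (edgeR adjusted p = 0.006238) that also passed without any 1 library. There 7 of 8 germ cell markers and 2 of 8 smooth muscle markers also fell, beside 3.01% of all genes. Their part in the level of Cxcl14 was not tested. In the efferent ductules the ages did not overlap, at 7.005 to 8.595 CPM and 4.474 to 5.769 CPM, but the change of -0.41 ± 0.16 did not pass (edgeR adjusted p = 0.1348). The means were 20.74 and 17.67 CPM in the caput and 23.45 and 20.09 CPM in the vas deferens at 3 and 21 months, and in both regions the ages overlapped. Of 8 fibroblast markers 6 fell in the corpus (1.47% of all genes fell there), 5 in the vas deferens (8.47%), where 1 rose, none in the cauda (0.0583%), and 3 in each of the caput (5.05%), initial segment (3.01%), efferent ductules (2.98%) and testis (0.21%). In the caput, initial segment, efferent ductules and testis the 3 were the collagens Col1a1, Col1a2 and Col3a1, and the rest of the list was not called. The cauda called few genes of any kind, and there the fibroblast sum was 2207.0 to 9317.0 CPM at 3 months and 1034.0 to 1189.0 CPM at 21 months, without overlap and with the lowest median of the 7 regions (log2 -1.70 over the 8 markers). This median included the library that stood apart and is not given without it, so its rank may rest on that library. Without it the 3-month sums were 2207.0 to 2469.0 CPM. The part of fibroblasts in the level of Cxcl14 was not tested.

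Besides Cxcl13, the vas deferens had 4 members that rose and 1 that fell, and these were ligands of Cxcr3, Ccr2, Cx3cr1 and Ccr1. Of 8 region markers, Adam28, Spint3 and Wfdc9, each higher in another region, also rose there and Akr1b7, its own marker, fell. Of 8 blood endothelium markers 4 fell there (Esam, Kdr, Tie1 and Vwf), as did 8.47% of all genes, and of 8 smooth muscle markers 5 rose. The part of these in the results was not tested. Cxcl10, a ligand of Cxcr3 that interferon gamma induces, read 0.7403, 0.06254, 0.4452 and 0.3407 CPM at 3 months and 1.396, 1.564, 1.013 and 1.712 CPM at 21 months. The ages did not overlap, and Cxcl10 rose by 1.74 ± 0.47 on the log2 scale (edgeR quasi-likelihood test, adjusted p = 0.02537). Without replicate 3 or without replicate 4 of 3 months the rise was 1.67 to 1.79 (adjusted p from 0.06256 to 0.07499). Its receptor Cxcr3, carried by activated T cells, rose as well, by 1.76 ± 0.46 (edgeR adjusted p = 0.0216). Of the 16 interferon gamma response genes tested apart from chemokines, 3 rose in the vas deferens, Ciita, Psmb8 and Psmb9, and of 12 type I interferon genes 5 rose, in a region where 11.4% of all genes rose. The promoters of Cxcl10 and Ccl12 are shown because both rose in the vas deferens and hold different motifs, with the same window, capitals and source as above (Cxcl10 chr5:92348890-92349139, minus strand, and Ccl12 chr11:82101595-82101844, plus strand).
Cxcl10: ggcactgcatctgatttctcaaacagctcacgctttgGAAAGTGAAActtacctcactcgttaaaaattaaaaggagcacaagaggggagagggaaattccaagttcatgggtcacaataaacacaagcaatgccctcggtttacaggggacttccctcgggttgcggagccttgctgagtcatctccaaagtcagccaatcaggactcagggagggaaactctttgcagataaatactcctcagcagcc
Ccl12: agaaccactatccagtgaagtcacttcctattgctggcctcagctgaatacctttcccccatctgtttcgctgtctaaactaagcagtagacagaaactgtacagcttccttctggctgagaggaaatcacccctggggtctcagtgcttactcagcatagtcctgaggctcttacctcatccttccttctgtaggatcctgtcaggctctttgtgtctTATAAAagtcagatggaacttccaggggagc

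The Cxcl10 window held the interferon-stimulated core at 213 bases before the start, a motif found among the members only here and in the windows of Cxcl14 and Ccl19, and the Ccl12 window held TATAAA at 31 bases before it. Ccl12, a monocyte attractant of the mouse that binds Ccr2, read 0.3173, 0.8755, 0.7915 and 0.3894 CPM at 3 months and 1.842, 1.664, 1.519 and 2.853 CPM at 21 months. It rose by 1.68 ± 0.37 without overlap (edgeR adjusted p = 0.01029). Ccl2, the main ligand of Ccr2, stayed under 1 CPM on average and is named after its values were seen. It read 0.2115, 0.3127, 0.2473 and 0.09734 CPM at 3 months and 0.6699, 0.9079, 0.8438 and 1.37 CPM at 21 months, a rise of 2.06 ± 0.43 (edgeR adjusted p = 0.007916). Ccl7, the third Ccr2 ligand, had means of 0.4384 and 1.245 CPM with overlapping libraries (log2 fold change 1.45 ± 0.54, edgeR adjusted p = 0.08266). The receptor Ccr2 went the opposite way and fell by 0.63 on the log2 scale (SE 0.16, edgeR adjusted p = 0.02005), from 14.75 to 18.56 CPM at 3 months to 8.889 to 13.73 CPM at 21 months. Of 12 macrophage markers 3 rose, C1qa, C1qc and Cd68, beside 11.4% of all genes, and the summed level of the list was 288.1 to 411.2 CPM at 3 months and 306.4 to 466.6 CPM at 21 months.

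Cx3cl1 in the vas deferens read 24.96, 30.27, 24.39 and 25.7 CPM at 3 months and 33.49, 45.65, 43.37 and 39.49 CPM at 21 months. All 4 older libraries were above all 4 younger ones, a rise of 0.56 ± 0.10 on the log2 scale (edgeR adjusted p = 0.004342). In the corpus it read 25.5, 30.88, 25.17 and 19.33 CPM and then 37.02, 34.34, 39.29 and 36.65 CPM, again without overlap, and rose by 0.54 ± 0.12 (edgeR adjusted p = 0.02603). The corpus call was lost without any 1 of the 4 libraries of 21 months or without replicate 3 of 3 months (log2 0.48 to 0.58, adjusted p from 0.05219 to 0.09659). It was also lost with all 56 libraries in 1 fit and with scaling by library size alone (highest edgeR adjusted p = 0.5007). Neither region showed a called change of the receptor Cx3cr1. In the corpus its means were 5.536 and 4.384 CPM, and in the vas deferens 6.877 and 7.186 CPM.

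Of the Ccr1 ligands, Ccl9 fell in the vas deferens and Ccl6 in the corpus, while Ccl6 in the vas deferens (edgeR adjusted p = 0.4298), Ccl9 in the corpus (0.126) and Ccl3 in both (0.05675 and 0.4046, with higher means at 21 months) did not pass. In the vas deferens Ccl9 read 13.7, 14.88, 14.74 and 10.61 CPM at 3 months and 8.262, 10.49, 5.007 and 5.136 CPM at 21 months, and the lowest library of 3 months was just above the highest of 21 months. The log2 fold change was -0.95 ± 0.24 (edgeR adjusted p = 0.01797), and -0.92 to -0.90 without replicate 1 or replicate 3 of 3 months (adjusted p from 0.05684 to 0.05818). In the corpus Ccl6 read 16.59, 14.9, 20.32 and 19.1 CPM at 3 months and 9.156, 8.208, 15.08 and 10.87 CPM at 21 months. Here replicate 3 of 21 months lay above the lowest library of 3 months, and the log2 fold change was -0.73 ± 0.18 (edgeR adjusted p = 0.0376). It was -0.69 to -0.62 (adjusted p from 0.08042 to 0.1346) without replicate 1, 2 or 4 of 21 months or replicate 3 or 4 of 3 months. No macrophage marker of 12 was called in the corpus, where the sum was 425.0 to 533.0 CPM and then 426.0 to 499.1 CPM, whereas the receptor Ccr2 fell there by 1.03 on the log2 scale (edgeR adjusted p = 0.01773).

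In the caput the only call was Ccl27a. It read 7.76, 10.17, 7.997 and 7.297 CPM at 3 months and 5.075, 5.516, 4.324 and 5.483 CPM at 21 months, with no overlap and a log2 fold change of -0.75 ± 0.19 (edgeR adjusted p = 0.02877). The highest value was that of replicate 2, the library with the large Gm42418 share. Without it the change was -0.58 (adjusted p = 0.04977), and without any 1 of the 4 libraries of 21 months or replicate 3 of 3 months it was -0.81 to -0.67 (adjusted p from 0.05239 to 0.099). Germ cell markers Prm1 and Prm2, 2 of 8, also fell in the caput, where 5.05% of all genes fell. The sum of the 8 was 95.04 to 133.7 CPM at 3 months and 82.16 to 86.34 CPM at 21 months, and 7 of 8 smooth muscle markers fell. The part of either in the level of Ccl27a was not tested. In the initial segment the third call was Cxcl2, a ligand of Cxcr2 on neutrophils, named after its values were seen. It rested on 3 counts over the 4 libraries of 3 months and 26 over those of 21 months, a rate ratio of 8.83 with an exact 95% interval of 2.71 to 45.6 that covers counting error only. The call (edgeR adjusted p = 0.04148) was lost without replicate 1, 3 or 4 of 3 months or replicate 1, 2 or 4 of 21 months (log2 2.69 to 3.26, adjusted p from 0.07539 to 0.1026). It was also lost with the replicate number as a block (edgeR adjusted p = 0.07102), with DESeq2 and with all 56 libraries in 1 fit.

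In the testis Cxcl12 came nearest to a call. It read 12.88, 14.84, 15.38 and 14.35 CPM at 3 months and 18.24, 17.68, 17.66 and 20.28 CPM at 21 months, without overlap, for a log2 fold change of 0.36 ± 0.09 (edgeR adjusted p = 0.06994). In the cauda Cxcl10 read 0.8621, 0.3812, 1.061 and 0.3826 CPM and then 1.538, 2.141, 1.958 and 2.285 CPM, also without overlap (log2 1.52 ± 0.38, edgeR adjusted p = 0.1566). Of the 28 members tested, 18 were called in no region: Ccl1, Ccl3, Ccl4, Ccl7, Ccl11, Ccl17, Ccl22, Ccl24, Ccl25, Ccl26, Ccl27b, Ccl28, Cxcl1, Cxcl5, Cxcl9, Cxcl12, Cxcl16 and Xcl1. The 8 that could be tested in no region were Ccl19, Ccl20, Ccl21a, Ccl21b, Cxcl3, Cxcl11, Cxcl15 and Cxcl17, which had fewer than 10 counts over the 8 libraries of every region.

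Whether the age effect itself differed between regions was tested in 1 fit of all 56 libraries, which came from 8 mice and were again treated as independent. Of 31 members tested, 7 passed an adjusted p of 0.05, as did 20.2% of all genes. They were Cxcl14 (edgeR adjusted p = 2.615e-06), Cxcl10 (0.01113), Ccl2 (0.01249), Ccl25 (0.01748), Cxcl13 (0.02164), Ccl27a (0.02712) and Cx3cl1 (0.03719). The count moved with the replicates used: leaving out replicate 1 of every group left 3 (Cxcl10, Cxcl13 and Cxcl14), leaving out replicate 2 left 3 (Ccl2, Cx3cl1 and Cxcl14), leaving out replicate 3 left 5 and leaving out replicate 4 left 2 (Ccl27a and Cxcl14). Cxcl14 passed each time. Without the cauda library that stood apart alone the same 7 members passed. Without the caput library with the large Gm42418 share there were 6, Cx3cl1 being the one lost. Each region's age effect was then set against the mean of the other 6, over all genes in the same fit. The fall of Cxcl14 in the corpus was stronger than elsewhere by a log2 difference of -1.87 ± 0.27 (edgeR adjusted p = 0.000142, with 0.124% of all genes called), and that in the cauda by -0.70 ± 0.20 (adjusted p = 0.04639, 2.3% of all genes). Without the cauda library that stood apart the cauda difference did not pass (-0.63 ± 0.21, edgeR adjusted p = 0.1924), whereas that of the corpus did (-1.89 ± 0.28, adjusted p = 0.0001071). For Cxcl13 it was the caput that differed, by -2.34 ± 0.71 (edgeR adjusted p = 0.03024, 6.94% of all genes), the region in which the ages were interleaved. Ccl27a also differed in the caput (-0.68 ± 0.19, edgeR adjusted p = 0.01715). Without the caput library with the large Gm42418 share neither passed, with -2.47 ± 0.76 for Cxcl13 (edgeR adjusted p = 0.05145) and -0.61 ± 0.19 for Ccl27a (adjusted p = 0.0571). No member differed in this way in the initial segment or the testis, against 1.9 and 0.0649% of all genes.

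In the vas deferens, where 7.7% of all genes differed in this way, Ccl2 (2.13 ± 0.62, edgeR adjusted p = 0.02218) and Cx3cl1 (0.60 ± 0.20, adjusted p = 0.04768) had a higher age effect than the mean of the other regions. Without the same caput library Cx3cl1 did not pass (0.51 ± 0.20, edgeR adjusted p = 0.108). In the efferent ductules (3.76% of all genes) Ccl25 had a lower one (-0.60 ± 0.14, edgeR adjusted p = 0.009439). Its libraries there read 24.88, 26.53, 26.93 and 26.8 CPM at 3 months and 13.16, 20.83, 21.85 and 13.2 CPM at 21 months, and in the region alone the change did not pass (edgeR adjusted p = 0.06954). Of the older libraries with their higher Gm42418 shares, given above, replicates 1 and 4 were the low ones for Ccl25, whereas replicate 3 was the highest of the older libraries, and the part of this share in the level of Ccl25 was not tested.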

How the data were processed

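The 56 libraries were stranded total RNA, 4 per region and age. The authors deposited 1 table of raw counts per Ensembl gene. Per the study's methods and the submitters' processing notes, reads were trimmed with cutadapt, aligned with HISAT2 to mm10 (GRCm38) and counted with HTSeq. Tool versions, annotation release, counting mode and strand setting are not given in the sources used here. The labels name TRIzol for the RNA extraction and the methods name a column kit.

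Samples were grouped by region and age as labelled. Symbols came from GENCODE M21, which matched 53274 of the 53379 rows, and 7 annotated chemokine copies were outside the table. The members, lists and tests were chosen with earlier results of these data known. Age was tested per region over 8 libraries, region over the 28 libraries of an age, and the difference of age effects over all 56 (from 4 mice per age, treated as independent), with edgeR 4.0.16 in R 4.3.3 (quasi-likelihood test, TMM, at least 10 counts over the libraries of a fit). P-values were adjusted by Benjamini and Hochberg over all genes tested. Of the members called in a region, those with a mean of at least 1 CPM were described by library, up to 6 per region for age and up to 3 per region for location, along with the 6 highest per kilobase. Receptors, atypical receptors, Ccl5, Ccl8, Pf4 and Ppbp were named where called, up to 5 per region, and beyond that, after their values were seen, Cxcr3, Ccr2 and Ccl8 in the vas deferens. Library totals of 11125279 to 20561967 counts set the precision, and intervals cover counting error only. Code was tested on simulated data.

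Alternatives were DESeq2 1.42.0, its size factors, library size alone, other filters, 1 fit of all libraries, the study's limits (p under 0.05 and 1.5-fold) on the unadjusted edgeR p, leaving out each replicate, and a replicate block. After seeing the data, fits without the cauda and caput libraries that stood apart were added. The labels number the replicates but do not say that a number marks 1 mouse, so the numbers were not used as pairs. All same-numbered libraries deviated together (every correlation over 0.1) in 1 of 42 pairs of regions. They did so in 0 of 7 pairs of ages, which were different mice. This rule is strict and cannot decide the matter. At 3 months the mean correlation of same-numbered libraries was 0.188 between caput and corpus, against -0.0646 for different numbers. Between efferent ductules and initial segment it was -0.1187, against 0.0387. Python 3.11.15 with pandas 2.3.3, statsmodels 0.14.6 and matplotlib 3.10.9 was used otherwise. Promoters came from RefSeq, GRCm38.p6.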

Additional observations from a re-analysis of the deposited data

Results flagged for a closer look

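In 15 of 136 groups of 4 libraries examined, the highest or lowest library lay farther from the rest than Dixon's 95% limit allows, a limit that chance passes in about 1 of 20 groups. In the cauda at 3 months it was replicate 3 each time, and it was the highest for Ccl3 (3.818 CPM, next 0.3176), Ccl4 (1.273, next 0.1847), Ccl6 (74.88, next 25.12), Cxcl16 (38.29, next 10.35) and the sum of all members (481.9 CPM, next 364.5). In the efferent ductules at 3 months 1 library was the highest for Ccl27a (11.22 CPM, next 7.268, replicate 3, the library with high germ cell markers) and another for Cxcl14 (8.595, next 7.226). At 21 months 1 library there was the lowest for Cxcl14 (4.474 CPM, next 5.553).

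Elsewhere a library was the highest for Cxcl14 in the initial segment at 3 months (28.14 CPM, next 22.62), Ccl26 in the testis at 21 months (0.3815, next 0.1653) and Ccl6 in the testis at 21 months (0.2725, next 0.05511). A library was the lowest for Cxcl14 in the corpus at 3 months (2.319 CPM, next 5.199), Cxcl12 in the initial segment at 3 months (46.86, next 56.76), Cx3cl1 in the cauda at 21 months (29.48, next 62.98) and Cx3cl1 in the caput at 21 months (71.97, next 73.66).

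The age effect differed between the regions for 7 of 31 members by the interaction test of edgeR over 56 libraries: Cxcl14 (adjusted p = 2.615e-06), Cxcl10 (0.01113), Ccl2 (0.01249), Ccl25 (0.01748), Cxcl13 (0.02164), Ccl27a (0.02712) and Cx3cl1 (0.03719). The same test called 20.2% of all genes, near the share of the members. The count was 2 to 7 when a replicate of every group or a library that stood apart was left out.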

How the results depend on the processing

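No called age effect of a member changed direction under any alternative run, and all 17 kept their direction. The calls that also passed without any 1 library were those of Cxcl13 and Cxcl14 in the initial segment, Cxcl14 in the corpus, and Cxcl13, Ccl2, Ccl12 and Cx3cl1 in the vas deferens. Leaving out 1 library at a time gave 0 to 2 called members for each of the cauda, caput and efferent ductules, and 1 to 4 for the corpus. The members differing between regions were 2 to 7 when 1 replicate of every group, or 1 library that stood apart, was left out (3 without replicate 1 or replicate 2, 2 without replicate 4). With all 56 libraries in 1 fit the calls became 5 in the cauda, 2 in each of the caput and efferent ductules, and 1 in each of the corpus and initial segment. Lost in that fit were Cxcl13 (edgeR adjusted p = 0.07053) and Cxcl2 (0.06166) in the initial segment, Cxcl13 (0.158), Ccl6 (0.4334) and Cx3cl1 (0.1843) in the corpus, and Ccl9 (0.06346) in the vas deferens. Shares of all genes are not given for that fit or for those with other tools, filters or scaling. Changes in the count of calls under them are therefore not read as results about the members. DESeq2 called 1 in the testis and 2 in the efferent ductules, and 1 was called in the testis without a filter on low counts. Scaling by library size alone, which moved the median log2 difference over all genes to -0.17 (corpus), 0.19 (caput) and -0.38 (efferent ductules), gave 4 calls in the efferent ductules and 0 in the caput. Ccl27a in the caput and Cx3cl1 in the corpus lost their calls under it. The study's limits on the unadjusted edgeR p called 5 members in each of the cauda, caput and initial segment, 3 in the efferent ductules and 2 in the testis. Region calls were 4 at each age after filterByExpr, and 5 at 3 months and 3 at 21 months when each single other region had to be passed. The log2 ratio of the summed level changed sign with DESeq2 size factors in the cauda (0.0103) and efferent ductules (0.0564), with library size alone in the corpus (-0.1862) and caput (0.0564), and in the corpus without the 2 members with the highest counts (-0.2384). Leaving out 1 replicate gave -0.0756 to 0.1093 for the cauda and -0.0559 to 0.0692 for the corpus, 0.1093 being the value without the cauda library that stood apart. The cause of these changes was not tested. The 8 members never tested had under 10 counts per region, and for Ccl19, Ccl21a and Ccl21b low depth and sequence shared with other genes cannot be told apart.

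With the replicate number as a block there were 0 calls in the efferent ductules, where Cxcl13 was at 2.45 on the log2 scale (edgeR adjusted p = 0.06147), and Cxcl2 lost its call in the initial segment (edgeR adjusted p = 0.07102), as it did with DESeq2 (adjusted p = 0.05602). The block changed no other call of a named member. The check of pairing could not decide whether the numbers mark shared mice.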

Other observations

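Outside the 36 members, the receptors moved most in the vas deferens. Of 14 chemokine receptors tested there, 5 rose and 1 fell (11.4 and 8.47% of all genes). Ccr6, a receptor of B cells and some T cells, rose by 5.09 ± 1.07 on the log2 scale, Ccr7, which guides lymphocytes and dendritic cells to lymphoid tissue, by 2.43 ± 0.71, and Cxcr4, the receptor of Cxcl12, by 2.32 ± 0.55 (edgeR adjusted p = 0.008348, 0.03391 and 0.01409). Their ligands did not pass there or were too low to test. Ccr7 also rose in the efferent ductules (2.99 ± 0.59, edgeR adjusted p = 0.01826) and Cxcr6 in the initial segment (1.61 ± 0.40, edgeR adjusted p = 0.02721). No receptor was called in the testis, caput or cauda, and none of the 5 atypical receptors in any region. Of the 2 chemokines kept aside, Ccl5 rose in the efferent ductules (2.40), corpus (1.38) and vas deferens (2.29), and Ccl8 in the testis (1.61), efferent ductules (1.80), caput (3.26) and vas deferens (1.01). Pf4 rose in the efferent ductules (0.68), and Ppbp was called nowhere.

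Among NF-kB targets other than chemokines, 7 of 11 tested rose in the vas deferens, as did 11.4% of all genes. Macrophage markers rose for 6 of 12 in the efferent ductules, where 1 fell, for 4 in the initial segment and for 3 in the caput, beside 4, 3.35 and 3.09% of all genes that rose. Germ cell markers fell for 7 of 8 in the initial segment (3.01% of all genes fell).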
